A study of Mus musculus with 9 samples.

Results

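The normal course of embryoid body differentiation between day 4 and day 8 was read from the wild-type mouse libraries of those days, 1 library for each day. Genes were counted where they reached 5 TPM (a transcript level corrected for gene length and library size) in the library of day 4, of day 8 or of both. This kept 12740 of 49311 named genes, of which 11195 were protein-coding. Just inside that limit stood Gbx2, with 5.0024 TPM on day 4 and 0.705 on day 8, and just outside it Abcb1a, with 3.67 TPM on day 4 and 4.9994 on day 8. The series holds 9 polyA+ RNA libraries. They cover wild-type mouse embryonic stem cells (day 0) and embryoid bodies made from them (days 4 and 8), and the same 3 days of 2 Hnrnpll-/- lines, G6 and H8, at 1 library per line and day. All cells had been grown as stem cells in serum medium with leukemia inhibitory factor, and the bodies grew as hanging drops. No parental line is named, nor any age, sex or further agent, and nothing says whether G6 and H8 are each 1 clone.

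Embryoid bodies are aggregates in which stem cells leave pluripotency without instruction from a host embryo. Cells first pass through a state like the primitive streak, the site where epiblast cells become mesoderm and endoderm under Nodal, Wnt and Fgf signals. Their descendants then form patches of beating heart muscle, blood islands with embryonic globins, vessels, endoderm like that of the yolk sac, and loose mesenchyme. Each library is RNA of whole bodies, so a lower level from fewer cells of a type and one from less RNA per cell cannot be told apart.

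The wild-type libraries held 113059196, 122111155 and 135562895 counts on days 0, 4 and 8, and the 9 libraries ranged from 54218051 to 184952442. With 1 wild-type library a day there is no replicate error, so the values below are levels and fold sizes with no test, and "higher" and "lower" mean at least 2-fold on TPM + 1. At this depth counting error is small for genes above 5 TPM, but it says nothing of the spread between cultures. Hnrnpll, the gene deleted in the other lines, stood at 77.1, 101 and 112 TPM in wild type on days 0, 4 and 8, against 24.5 to 61.2 TPM in the 6 knockout libraries. The labels do not give the deleted part. Mitochondrially encoded genes took 4.36% of TPM in the wild-type library of day 4 and 6.38% on day 8.

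Between day 4 and day 8, 2097 genes were higher (16.5% of those counted) and 746 were lower (5.86%). At 4-fold, 649 were higher (5.09%) and 205 lower (1.61%). At 16-fold, 93 were higher and 19 lower. The day 8 library thus gained more transcripts than it lost, yet part of this balance is set by scaling. The median gene differed by 0.22 on the log2(TPM + 1) scale, and 62.2% of genes lay above 0. On CPM with TMM factors the median was 0.03, with 1602 genes higher and 972 lower. With the TPM median subtracted, 1510 were higher and 1151 lower. The share of higher among all 2-fold differences was 73.8% on TPM, 62.2% on CPM and 56.7% after subtraction. Of the 12740 genes, 10793 reached 5 TPM on both days, 1326 on day 8 alone and 621 on day 4 alone. A gene counted through day 8 alone had to be higher on that day, so the counts of higher members below are a description of each group.

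**Figure D1:**
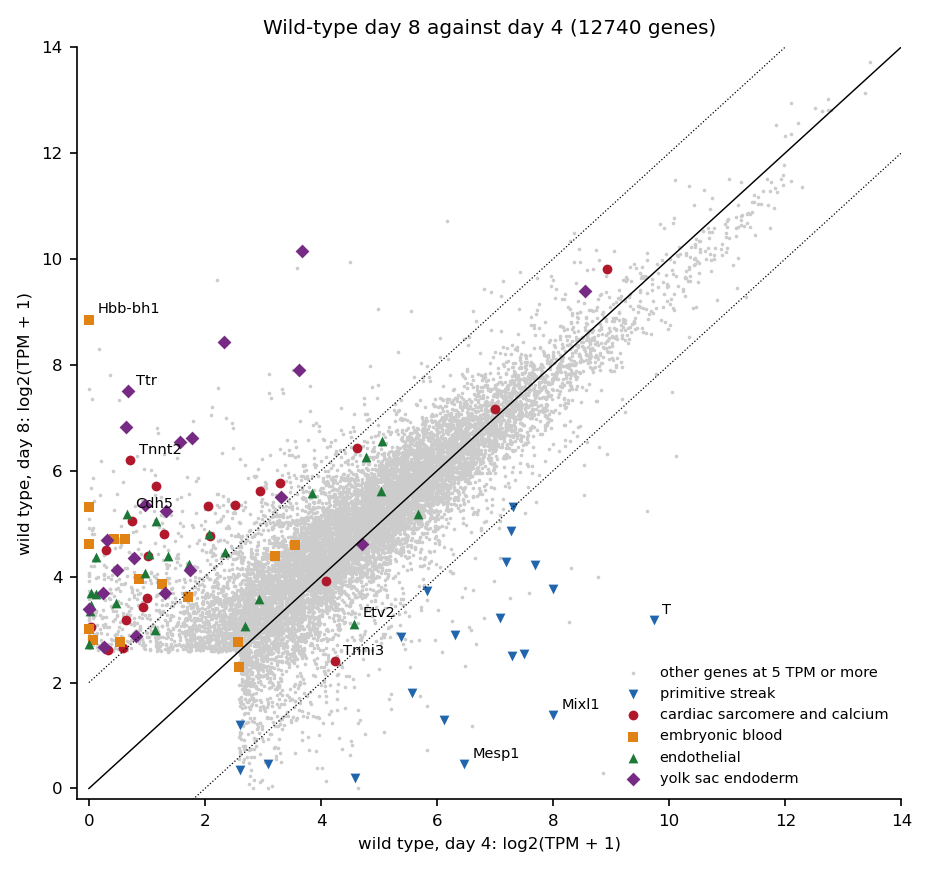
Level of each of the 12740 genes in wild type, log2(TPM + 1), day 4 on the horizontal and day 8 on the vertical axis, 1 library each. The solid line marks equal levels and the dotted lines 4-fold differences; primitive streak genes lie below the lower dotted line with 2 exceptions, and most sarcomere, blood, vessel and yolk sac genes lie at the left, above the upper one.

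The primitive streak genes were the group with the most uniform loss. All 20 members that reached 5 TPM were lower on day 8, 18 of them by 4-fold or more, with a median difference of −3.61 on the log2(TPM + 1) scale and a range from −6.63 to −1.41, against a median of 0.22 over all genes counted. The remaining member of the list stayed below 5 TPM on both days. The summed TPM of the 21 genes went from 641 on day 0 to 2912 on day 4 and 175 on day 8, so most of these genes had their high point on day 4, and 13 met the definition of a day 4 peak (4-fold above both other days).

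Mixl1, a homeobox gene of the streak (mm10 chr1:180693043-180697034), had 255.8 TPM on day 4 and 1.60 on day 8, a 159.8-fold difference. Mesp1, the bHLH factor that marks the earliest heart and vessel progenitors as they leave the streak (chr7:79792241-79793788), had 0.344 TPM on day 0, 87.5 on day 4 and 0.381 on day 8. It was 230-fold lower on day 8 than on day 4 and thus back at its day 0 level. Msgn1, which directs presomitic mesoderm, went from 23.1 to 0.151 TPM. Gsc, the organizer homeobox gene, went from 68.8 to 1.45 TPM, and Lhx1, a partner in the same region, from 135 to 8.33. Fgf8, the ligand that drives cells out of the streak, went from 155 to 4.64 TPM and Wnt3, needed to start the streak, from 46.3 to 2.48. Loss was incomplete for part of the list. Eomes, the T-box factor of early endoderm and heart progenitors, was still at 12.6 TPM on day 8 after 253 on day 4, and Snai1, the repressor of E-cadherin, at 12.2 after 55.7. Foxh1, which takes Nodal signals to chromatin, kept 39.0 of 157 TPM.

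Around the streak genes stood their signals. In the Nodal list, 5 of the 10 members counted were lower and none higher. Tdgf1, the Nodal co-receptor, went from 1108 to 76.6 TPM (14.5-fold). Lefty1, a Nodal inhibitor, went from 205 to 17.7 TPM and Nodal itself from 145 to 18.4. The activin receptor Acvr1b had 23.3 and 47.3 TPM. In the Wnt list, 9 of 21 were lower and 6 higher, with ligands and inhibitors on both sides. Among the lower were the streak ligand Wnt8a (55.6 to 0.648 TPM) and the Wnt target genes Sp5 (180 to 4.82) and Sp8 (14.2 to 0.306). The higher ones were the secreted inhibitors Dkk1, Dkk2 (0.0314 to 12.1 TPM), Sfrp1 (5.87 to 35.1) and Sfrp5 (0.463 to 6.39) and the ligands Wnt2 and Wnt5a, while the inhibitor Sfrp2 was lower. Of the 12 Notch genes counted, 5 were lower and 1 higher. The ligands Dll3 (33.1 to 1.08 TPM) and Dll1 (13.6 to 1.59) were lower, while Hey2, a Notch target in heart ventricle, was higher (0.429 to 14.5). Of 18 Fgf genes, 4 were lower and 3 higher, the latter a share close to the 16.5% of all genes counted. The 3 were Fgfr2 (7.19 to 34.2 TPM), Fgfr3 (0.771 to 7.77) and Fgfr4 (0.875 to 8.28), all receptors, and the lower ones included the ligands Fgf5 and Fgf17 beside Fgf8.

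Pluripotency genes did not move as one group. In the general list, 6 of 16 were lower and none higher, with a median of −0.65. These included Tdgf1, Pou5f1, Nanog, L1td1, an RNA-binding protein of stem cells (324 to 105 TPM), and Utf1, a chromatin factor (102 to 36.2). The other 10 stayed within 2-fold. Sox2, a partner of Pou5f1 that also serves neural and endodermal cells, had 94.5 TPM on day 4 and 75.7 on day 8, after 339 on day 0. Lin28a, which blocks let-7 processing, had 369 and 316 TPM. All 16 genes were still above 5 TPM on day 8.

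Of 14 naive pluripotency genes counted, 5 were higher on day 8, 9 stayed within 2-fold and none was lower, with a median of 0.58. The summed TPM of the list nevertheless went from 1273 on day 4 to 1051 on day 8. In the Hnrnpll-/- lines 11 of the 14 were higher in each, with medians of 1.72 in G6 and 1.77 in H8, and the summed TPM went from 2294 to 6003 and from 2765 to 5589. The 5 were Tfcp2l1 (72.5, 9.55 and 31.5 TPM on days 0, 4 and 8), Nr5a2 (24.5, 3.76 and 10.3), Tbx3, Klf4 and Nr0b1 (98.3, 5.09 and 12.3). Each was lowest on day 4, and all but Tbx3 remained below its day 0 level on day 8. Of these, Tbx3 is also known from heart and limb and Nr5a2 from endoderm. Which cells gave the transcripts of the 5 genes on day 8 was not tested. Of 13 formative genes of the primed epiblast 8 were lower, 5 stayed within 2-fold and none was higher, and 10 were still at 5 TPM or more on day 8. Zic2 went from 152 to 11.1 TPM, Pou3f1 from 24.0 to 1.78 and Dnmt3b, a de novo DNA methyltransferase, from 382 to 92.2, while Tet2 (3.38 to 19.9) and Tet3 (7.26 to 31.4), which oxidize methylated cytosine, were higher.

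**Figure D2:**
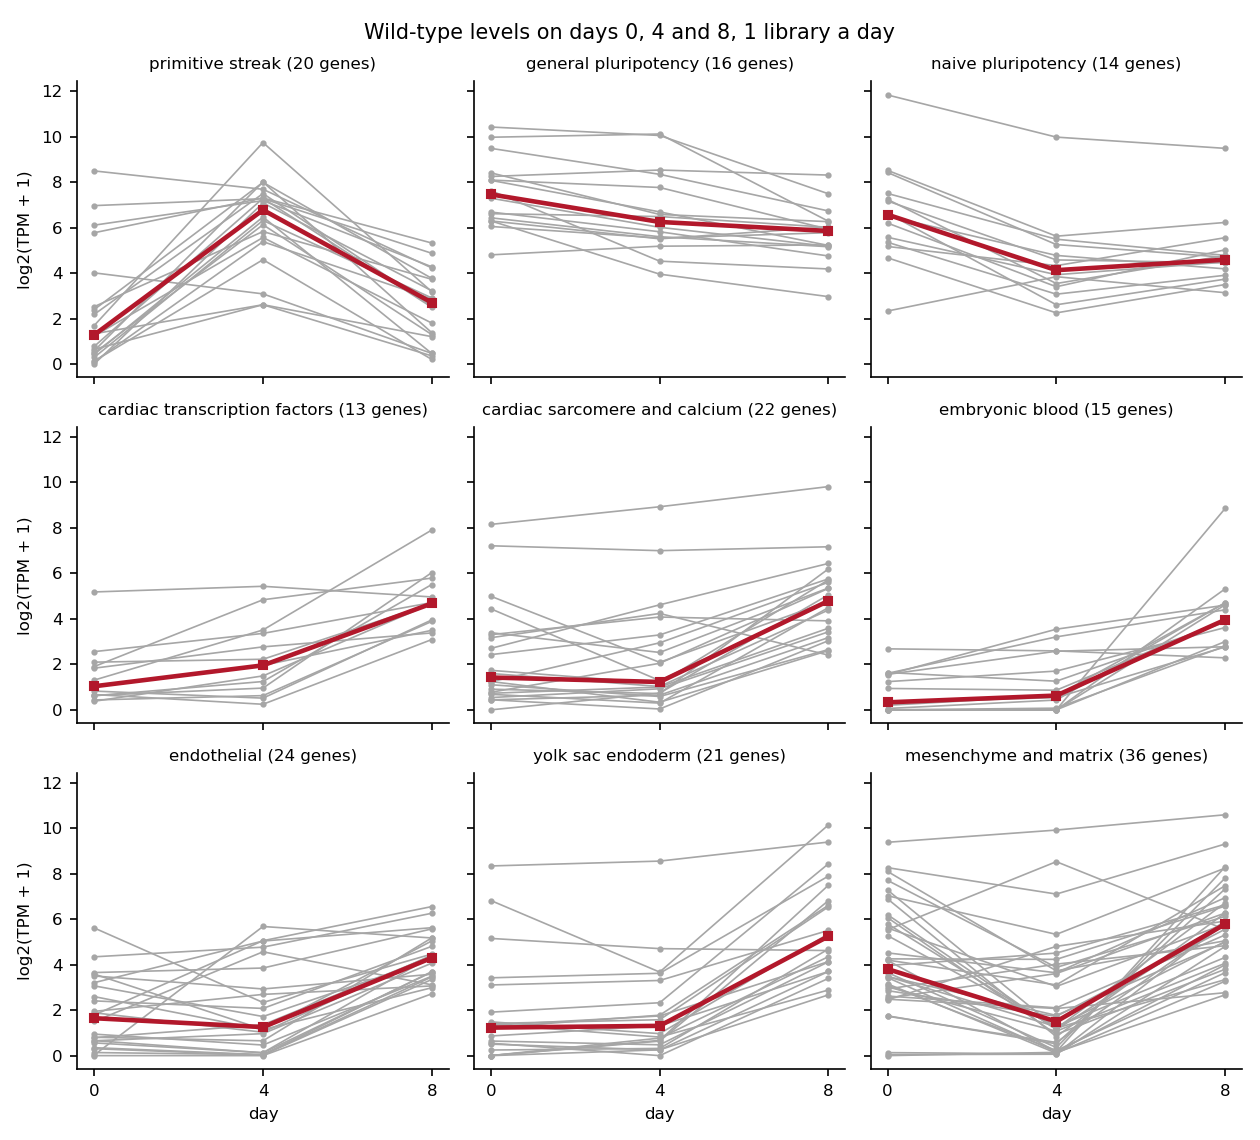
Level in wild type, log2(TPM + 1), on days 0, 4 and 8 (1 library a day) for the members of 9 gene groups that reached 5 TPM on day 4 or 8. Grey lines are genes and the red line with squares is the group's median; streak genes peak on day 4, cardiac, blood, vessel and yolk sac medians stay low until day 4, and the mesenchyme median dips on day 4.

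Of the 13 cardiac transcription factors counted, 10 were higher on day 8, 8 of them by 4-fold or more, and none was lower; the median difference was 2.85. Hand2, a bHLH factor of the right ventricle and second heart field, had 0.550, 0.940 and 64.6 TPM on days 0, 4 and 8. Hand1, its partner in the left ventricle and extraembryonic mesoderm, had 1.47, 10.4 and 239 TPM. Tbx20, a T-box factor of chamber muscle, went from 1.37 to 44.6 TPM, Tbx2, which marks non-chamber myocardium, from 0.542 to 13.8, and Mef2c, an activator of muscle genes, from 0.185 to 7.52. Gata4 was already at 9.28 TPM on day 4 and reached 25.3. Gata6 had 27.7 and 54.4 TPM, and Srf, the factor that binds CArG boxes in muscle promoters, 42.2 and 30.2. Nkx2-5 and Tbx5, both well-known heart factors, stayed under the limit of 5 TPM, with 2.84 and 1.25 TPM on day 8.

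Of the 22 sarcomere and calcium genes counted, 18 were higher and 1 lower, with a median of 2.62, and 17 differed by 4-fold or more. The thin filament gave Tnnt2, cardiac troponin T (112.9-fold), Tnni1, the slow troponin I that the embryonic heart uses (0.664 to 32.3 TPM), and Tnnc1 (6.71 to 47.8). The thick filament gave Myh7, the beta myosin heavy chain (0.227 to 21.6 TPM), Myh6, the alpha chain (1.04 to 19.96), Mybpc3 (0.0262 to 7.23) and the light chains Myl4 (1.24 to 51.7), Myl3 (3.13 to 39.5) and Myl2 (0.900 to 9.78). The atrial light chain Myl7 was already at 23.5 TPM on day 4 and reached 85.7. Of the calcium genes, the exchanger Slc8a1 went from 1.004 to 11.04 TPM and the release channel Ryr2 from 0.261 to 5.09. The pump Atp2a2 stayed at 127 and 143 TPM. The 1 gene that was lower was Tnni3, the troponin I of the mature heart, with 8.01, 17.9 and 4.30 TPM.

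In the smooth muscle list, 4 of 10 were higher and 1 lower. Acta2, smooth muscle actin, also made by early heart muscle (chr19:34241090-34255590), had 153 TPM in the stem cells, 3.62 on day 4 and 780 on day 8, a 215-fold difference between days 4 and 8. Tagln, a smooth muscle gene that is broadly expressed in culture, had 235, 147 and 319 TPM. Cnn1, a late smooth muscle marker, went from 18.4 to 4.65 TPM, and no member of the list followed Acta2 in size.

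The promoters of contractile genes are shown because many of these genes are read by Srf through CArG boxes. The 200 bases before the RefSeq start site are given 5′ to 3′ on the gene's strand (GRCm38.p6, the assembly mm10 is named for), with CArG boxes in capitals, here CC and GG around 6 bases of which at most 1 is not A or T. Acta2 and Tnnt2 follow from the naming rule as the genes of this kind with the largest difference, and Actc1, cardiac alpha actin (8.81 to 53.2 TPM), was added after the values were seen.
Acta2, chr19:34255374-34255573, minus strand: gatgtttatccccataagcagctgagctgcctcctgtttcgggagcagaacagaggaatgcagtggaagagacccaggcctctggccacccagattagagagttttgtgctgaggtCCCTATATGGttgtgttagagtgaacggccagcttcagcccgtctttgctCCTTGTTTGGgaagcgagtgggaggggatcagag
Actc1, chr2:114052876-114053075, minus strand: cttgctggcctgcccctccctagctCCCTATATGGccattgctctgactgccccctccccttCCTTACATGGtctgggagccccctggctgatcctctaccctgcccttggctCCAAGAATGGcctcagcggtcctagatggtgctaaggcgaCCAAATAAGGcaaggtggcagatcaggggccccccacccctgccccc
Tnnt2, chr1:135836134-135836333, plus strand: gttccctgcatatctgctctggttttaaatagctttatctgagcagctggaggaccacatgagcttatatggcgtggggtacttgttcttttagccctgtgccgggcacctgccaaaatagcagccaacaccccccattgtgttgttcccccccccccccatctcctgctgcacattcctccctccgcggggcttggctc
The Acta2 window holds 2 boxes and the Actc1 window 4, while the letters of a box do not occur in the Tnnt2 window. Over the 250 bases before the start, 8.65% of all 27025 promoter entries hold a box, and 7.92% of those of genes at 5 TPM or more. Of the sarcomere and smooth muscle genes that were higher, 7 of 19 with an entry hold one. So do 4 of 14 streak genes that were lower. A match is a description of letters and not of binding.

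Blood genes of the first, primitive wave appeared between day 4 and day 8. Of 15 counted, 13 were higher and none lower, with a median of 2.73, and 9 of the 29 measured met the definition of an onset (below 1 TPM on days 0 and 4, at least 5 TPM on day 8). Hbb-bh1, the embryonic beta-type globin and the gene with the largest difference of all (chr7:103841637-103843164), had no count on days 0 and 4 and 18449 counts on day 8. Set against a floor of 3 counts in the day 4 library it was at least 5539-fold higher relative to library size. Low counts were multiples of 4 in 33.2% of genes with low counts on day 8, against 25% by chance, so that bound could be 4 times smaller, 1385-fold. Hba-x, the embryonic alpha-type globin, went from 0 to 38.9 TPM, at least 610-fold by the same floor (152-fold at 4 times it), and Hbb-y, the other embryonic beta-type gene, from 0 to 23.5. The alpha genes that adult cells also use were present at a like level, Hba-a1 with 25.1 TPM and Hba-a2 with 25.1. These copies are near-identical, so the split between them is uncertain. The adult beta gene Hbb-bs reached 7.01 TPM.

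Factors of blood cells were present beside the globins. Tal1, which sets up blood and vessel fate, went from 0.818 to 14.6 TPM, Runx1, needed for later blood stem cells, from 1.39 to 13.4, and Gata2 from 2.26 to 11.3. Lmo2, a partner of Tal1, was already at 10.7 TPM on day 4 and reached 23.3. Gata1 and Klf1, the factors of red cells that act directly on globin genes, had 1.85 and 1.09 TPM on day 8 and stayed under the limit. Alas2, the red cell enzyme of haem synthesis, went from 0.454 to 5.795. Of 14 general haem and iron genes none differed by 2-fold, and their median was −0.12. Of markers of later blood cells, Ptprc (0.0101 and 0 TPM) and Adgre1 (0 and 0) were at or near 0 on both days, Csf1r had 3.32 TPM on day 8, and Pf4 of megakaryocytes 0.339.

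The embryonic globin promoters are shown because globin genes are the classic case of short promoter elements: the CACCC box, which Klf factors read, the CCAAT box, and the TATAAA box near the start. Both strands were searched, and capitals mark matches in the 200 bases before the start.
Hba-x, chr11:32276400-32276599, plus strand: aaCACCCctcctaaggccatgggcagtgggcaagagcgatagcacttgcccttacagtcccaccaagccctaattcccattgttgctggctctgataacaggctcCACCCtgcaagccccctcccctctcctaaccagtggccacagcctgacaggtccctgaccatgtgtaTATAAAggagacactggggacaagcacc
Hbb-y, chr7:103853208-103853407, minus strand: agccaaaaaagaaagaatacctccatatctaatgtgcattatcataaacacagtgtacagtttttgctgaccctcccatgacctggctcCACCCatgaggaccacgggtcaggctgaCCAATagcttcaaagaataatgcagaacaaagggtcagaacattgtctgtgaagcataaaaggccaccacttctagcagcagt
CACCC is short, and 51.3% of all promoter entries hold it within 250 bases, CCAAT 34.5% and TATAAA 12.97%. The Hba-x window holds CACCC at 2 places and TATAAA 28 to 23 bases before the start, and the Hbb-y window holds CACCC and CCAAT once each.

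Vessel genes followed the same course. Of 24 endothelial genes counted, 19 were higher and 1 lower, with a median of 2.72, and 15 differed by 4-fold or more. Cdh5, the cadherin of endothelial junctions (chr8:104101625-104144511), had 0.750, 0.571 and 35.2 TPM on days 0, 4 and 8. The angiopoietin receptor Tek went from 1.22 to 32.0 TPM and its relative Tie1 from 0.0939 to 19.6. The ETS factors Fli1 (0.0294 to 11.9 TPM) and Erg (0.0178 to 9.19) and the SRY-box factors Sox7 (0.381 to 10.3) and Sox18 (0.953 to 15.8) were higher together. Emcn, a sialomucin of veins, had no count on day 4 and 5.58 TPM on day 8. The receptors that act first were an exception in timing: Kdr, the main VEGF receptor, already stood at 32.2 TPM on day 4 and at 93.0 on day 8, and Flt1 at 31.9 and 48.4. Etv2, the ETS factor that starts the vessel and blood lineage, was the member that was lower, with 1.84, 22.7 and 7.65 TPM. Aplnr, the apelin receptor of early mesoderm, had 50.2 and 35.1 TPM. Pecam1 had 47.97 TPM in stem cells, which also express it, 4.05 on day 4 and 21.1 on day 8.

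The ligands of vessels and of mural cells were higher as well, 9 of 14 with 1 lower. Angpt1, the ligand of Tek, went from 0.0626 to 17.4 TPM, Vegfc from 2.30 to 23.02, Pdgfc from 1.46 to 34.2 and Cxcl12 from 10.8 to 75.6. Apln, the apelin ligand, was lower (45.1 to 3.90 TPM).

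Yolk sac endoderm gave the highest median of the 9 main groups, 3.65, with 19 of 21 members higher, each of them by 4-fold or more, and none lower. The group's genes encode carriers that visceral endoderm secretes or takes up. Ttr, which carries thyroid hormone and retinol (chr18:20665280-20674321), went from 0.592 to 180 TPM (303-fold), and Rbp4, the retinol carrier bound to it, from 4.01 to 346. Of the lipoproteins, Apoc2 went from 0.557 to 112 TPM, Apob from 1.99 to 92.3, Apom from 0.955 to 39.9 and Apoa1 from 0.705 to 19.4. Mttp, which loads lipid onto Apob, went from 8.88 to 44.5 TPM. The uptake machinery of the brush border was higher with them, Cubn (1.51 to 37.0 TPM), its partner Amn (1.48 to 12.0) and the adaptor Dab2 (11.3 to 237), but the co-receptor Lrp2 was not (25.1 and 23.6). Hnf4a, the factor that controls many of these genes, went from 0.188 to 12.0 TPM. Spink1, a secreted protease inhibitor, had 112, 11.8 and 1133 TPM on days 0, 4 and 8. Afp, the classic marker of this tissue, reached 24.8 TPM on day 8, below Ttr and Rbp4.

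Embryonic endoderm genes were mixed: 5 of 12 definitive endoderm genes were higher and 1 lower. Foxa1 (1.56 to 21.7 TPM) and Shh, the ligand of gut and floor plate (0.0594 to 11.3), were among the higher. Foxa2 (31.0 and 23.8 TPM) and Sox17 (15.0 and 27.1), which act from the streak onwards, stayed within 2-fold. In the list of parietal endoderm and basement membrane genes 9 of 12 were higher, with Col4a1 (27.8 to 250 TPM), Nid1 (9.20 to 175) and Lama1 (4.25 to 42.0). Its member Fst, the activin-binding inhibitor, was lower (308 to 7.86).

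Mesenchyme and matrix genes included Postn and Col3a1, which after Hbb-bh1 had the largest differences among genes with names other than predicted (Gm) ones. Of 36 counted, 32 were higher, 30 of them by 4-fold or more, and 1 was lower, with a median of 3.10. Postn, periostin (chr3:54361109-54391037), had 17.2, 0.130 and 315 TPM on days 0, 4 and 8. Col3a1, the fibrillar collagen of soft tissue, had 11.6, 0.281 and 223 TPM, Col1a1 54.5, 1.28 and 105, and Tnc, tenascin C, 118, 0.783 and 76.2. In the wild-type stem cell library 31 of the 41 measured members were at 5 TPM or more, on day 4 only 14, and on day 8 36, so for most of the list day 8 was a return and not a first appearance: 14 met the definition of a day 4 dip (4-fold below both other days) and 3 that of an onset. The 3 were Lum, lumican (0.0959, 0.0560 and 56.8 TPM), Hapln1, which ties hyaluronan to versican (0.0325, 0.0437 and 26.9), and Tcf21, a factor of epicardium and viscera (0, 0.105 and 5.38). The labels name no feeder cells, and which cells gave these transcripts on day 0 was not tested. Some day 0 genes did not come back in full, such as Bgn, biglycan (155, 1.31 and 9.14 TPM), and Timp1 (273, 12.3 and 32.1).

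Factors of the mesenchymal state stood above their day 0 level. Snai2 had 2.32, 0.494 and 54.0 TPM, Twist1 4.77, 11.2 and 76.2, and Zeb1 6.25, 2.31 and 46.1. Together with the loss of Snai1 this left Snai2 above Snai1 on day 8 (12.2 TPM), the reverse of day 4. Igfbp3, an IGF-binding protein, was the 1 member that was lower (368 to 45.7 TPM). Genes of lateral plate and septum transversum mesoderm were higher in 8 of 9 cases with none lower, with a median of 4.19. They included Foxf1 of visceral mesoderm (2.23 to 58.2 TPM), Tbx4 of allantois and hindlimb (0.494 to 26.2) and Nepn (0.0636 to 42.3). Pitx1, a hindlimb factor that only the rule of largest differences named, went from 0.0238 to 50.2 TPM. Markers of somite and kidney mesoderm went both ways. Of only 6 counted, 3 were higher, none by 4-fold, and 3 lower, against 16.5% and 5.86% of all genes counted. Of 15 measured, 3 reached 5 TPM on day 4 and 4 on day 8, and 6 and 10 reached 1 TPM.

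Hox genes, which set position along the body axis, were mostly under 5 TPM on day 4. Of 39 measured, 2 reached 5 TPM on day 4 and 24 did on day 8. Of the 25 counted, 22 were higher, each by 4-fold or more, and 1 was lower. Hoxb1, the first to start in the streak, was the lower one (0.330, 6.91 and 0.119 TPM). Hoxc8 went from 0.0348 to 28.4 TPM, Hoxd13 from 0.571 to 16.9, Hoxd4 from 0 to 15.7 and Hoxa9 from 0.197 to 14.4. A split by paralogue number, made after the values were seen, put 2 of 12 measured genes at 5 TPM or more on day 4 and 6 on day 8 in groups 1 to 4, 0 and 6 of 11 in groups 5 to 8, and 0 and 12 of 16 in groups 9 to 13. The summed TPM of groups 9 to 13 went from 15.3 on day 0 through 3.77 on day 4 to 136 on day 8, against 14.5, 20.1 and 64.9 for groups 1 to 4. Cdx2, an upstream factor of posterior Hox genes, was already at 17.3 TPM on day 4 and reached 37.3. The other 2 of the 3 caudal genes, Cdx1 and Cdx4, stayed below 5 TPM on both days. Of the 3, 2 were at 1 TPM or more on day 4 and only 1 on day 8.

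**Figure D3:**
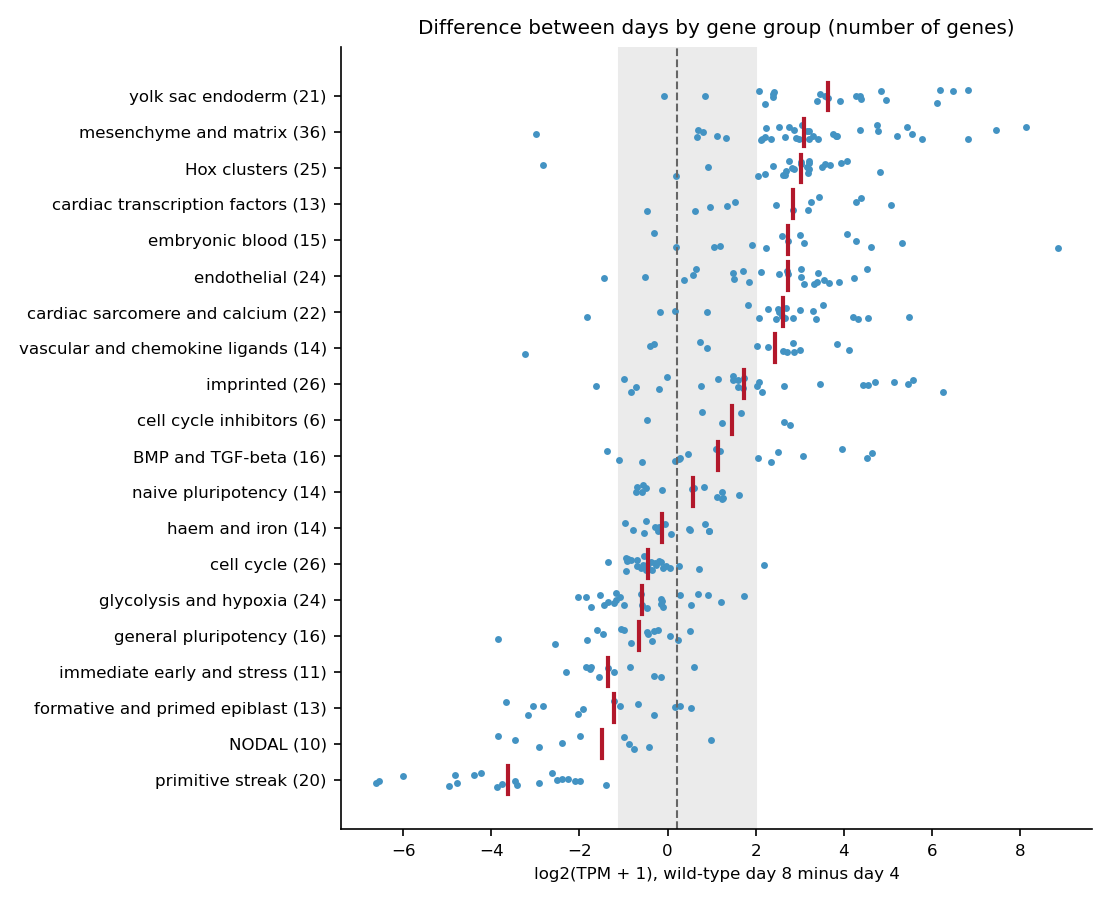
Difference in log2(TPM + 1) between wild-type day 8 and day 4 for the members of 20 gene groups (number of genes at 5 TPM or more in brackets). Points are genes, red bars are group medians, the dashed line is the median of all 12740 genes (0.22) and the grey band their 5th to 95th percentile (−1.10 to 2.01); 8 of the medians lie above the band and 4 below it.

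BMP and TGF-beta signals, which pattern lateral mesoderm and matrix, were more often higher: of 16 genes 9 were higher and 2 lower. Tgfb2 went from 4.12 to 127 TPM, Bmp5 from 0.893 to 42.6, Bmp2 from 2.62 to 55.0 and Bmp4 from 14.003 to 119. Among their targets and feedback genes, the higher ones included Id2 (25.7 to 152 TPM), Bambi (6.94 to 39.6) and Smad6 (8.70 to 39.1). The list as a whole also held 5 genes that stayed within 2-fold. In the retinoic acid list 5 of 10 were higher and 2 lower. Rdh10, which starts synthesis, went from 8.23 to 37.6 TPM and the receptor Rarb, itself a target, from 0.334 to 7.99, while Cyp26a1, which breaks retinoic acid down, went from 197 to 61.4.

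Imprinted genes, expressed from 1 parental copy and many of them tied to fetal growth, included several of the most abundant transcripts gained. Of 26 counted, 19 were higher and 1 lower, with a median of 1.73, and their summed TPM went from 2675 on day 4 to 9817 on day 8. Igf2, the fetal growth factor (chr7:142650766-142666816), went from 10.96 to 905 TPM (82.6-fold), and its neighbour H19 (chr7:142575529-142578143), which shares its enhancers and is expressed from the other parental copy, from 21.6 to 986. Mest went from 70.8 to 1670 TPM, Plagl1, a zinc-finger factor, from 7.64 to 224, Dlk1 from 2.48 to 122, Zim1 from 4.54 to 119 and Peg3 from 248 to 819. Igf2r, the receptor that clears Igf2, went from 45.9 to 513 TPM and Airn, the antisense transcript at its locus, from 0.328 to 62.4. Whether the counting used strand is not given in the sources used here, so reads of Airn and Igf2r may be mixed. Cdkn1c, an imprinted cell cycle inhibitor, went from 30.5 to 195 TPM. Snrpn was the member that was lower (295 to 94.9 TPM).

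Cell cycle genes mostly stayed within 2-fold. Of 26 cell cycle genes 1 was higher and 1 lower. Ccnd2, a cyclin of differentiating cells, went from 15.1 to 71.9 TPM and Ccne1 from 86.3 to 33.4. Of 6 cell cycle inhibitors 4 were higher, among them Cdkn2b (1.85 to 18.4 TPM) and Cdkn1b (22.9 to 55.5). In the glycolysis and hypoxia list 10 of 24 were lower and 2 higher. Ldha, which makes lactate, had 818, 2554 and 624 TPM on days 0, 4 and 8, Eno1 1208, 2303 and 694, and the lactate exporter Slc16a3 48.5, 140 and 37.8, so each was highest on day 4. Cholesterol synthesis genes stayed within 2-fold in 17 of 18 cases. Immediate early and stress genes were lower in 7 of 11 cases and higher in none, with Dusp1 (207 to 41.4 TPM), Fos (294 to 115) and Egr1 (201 to 85.7).

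The next groups were noticed in the values and chosen after these were seen. Genes of MHC class I and antigen processing were lower in 15 of 19 cases and higher in 1. Psmb8, an immunoproteasome subunit, went from 55.7 to 1.93 TPM (28.8-fold), the peptide transporter Tap2 from 26.02 to 1.03 and H2-K1 from 113 to 32.0, whereas B2m had 87.9 and 157. Interferon-stimulated genes were lower in 12 of 20 cases and higher in 1, with Isg15 at 147, 35.2 and 2.24 TPM on days 0, 4 and 8 and Gbp2 at 62.9, 95.1 and 6.94. Axon guidance genes, which many vessel and mesenchyme cells use, were higher in 13 of 22 cases and lower in 2, led by Unc5c (0.399 to 46.1 TPM), Robo2 (0.0595 to 26.9) and the co-receptor Nrp1 (7.75 to 164), with the ephrin receptor Epha1 lower (190 to 11.9). Of 82 cytosolic ribosomal protein genes 3 were lower and none higher, and their summed TPM went from 153650 to 106430. Of 862 processed pseudogenes 81 were lower (9.40%, against 5.86% of all genes counted) and 12 higher (1.39%, against 16.5%).

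Markers of other cell types gave mixed values. Of 22 neural genes 8 were counted, 4 of them lower and 1 higher: Stmn2 went from 76.2 to 15.8 TPM and Nefl from 44.6 to 8.52, and Tubb3 from 6.35 to 31.5. Pax6 had 0.289 and 0.923 TPM, Sox1 0 and 0.150, and Neurog2 was at 0 on both days. The muscle factors Myod1 (0.123 and 0 TPM) and Myog (0 and 0) were listed at 0 on day 8, and of 9 skeletal muscle genes only 3 were counted. Of 9 neural crest genes 3 were counted and 2 of these were higher, and the summed TPM of the list went from 20.9 to 76.3. The summed TPM of the trophoblast list went from 356 to 1049. In it 4 of 5 counted genes were higher, Plac1 (0.466 to 30.2 TPM), Peg10, Krt7 and Gata3, while the defining genes Prl3d1 (0 and 0) and Elf5 (0.289 and 0.214) were at or near 0. Of the 8 germline genes counted, 5 were lower, including Ddx4 (15.6 to 3.13 TPM), and Kit, which blood and other progenitors also express, was higher (20.4 to 80.1). The summed TPM of 20 macrophage and leukocyte genes was 98.8, 32.2 and 42.3 on days 0, 4 and 8.

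Across all 3 wild-type days, 166 genes met the definition of an onset, with a median of 0.242 TPM on day 0, 0.244 on day 4 and 9.23 on day 8. Day 4 peaks numbered 63, with medians of 1.48, 40.7 and 2.09 TPM, and included Alox15, a lipoxygenase (1.98, 96.4 and 1.27), and the kinase Pim2 (71.7, 438 and 15.0) beside the streak genes. Day 4 dips numbered 85, with medians of 29.9, 1.44 and 30.6 TPM. Of these, 14 were on the mesenchyme list. Stepwise gains, at least 2-fold in each step, numbered 135, led by Gpc3, a glypican that limits growth (32.0, 172 and 862 TPM), Cd24a (58.9, 210 and 800), and Hmga2, a chromatin protein of embryonic cells and let-7 target (57.7, 121 and 661). Stepwise losses numbered 39, among them Mkrn1 (877, 430 and 159 TPM) and the 2-cell-stage marker Zscan4f (189, 22.1 and 9.17). Of the 39, 7 were on the list of interferon-stimulated genes.

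The course was set beside that of the Hnrnpll-/- lines to see where wild type differs. Over the same 12740 genes, line G6 had 250 genes higher on day 8 than day 4 (1.96%) and 428 lower (3.36%), and line H8 609 higher (4.78%) and 356 lower (2.79%). These genes were chosen by the wild-type levels, which favours wild type in such a count. Over all named genes, 12119 reached 5 TPM on day 8 in wild type, 11637 in G6 and 11882 in H8. Fewer heart, blood, vessel and mesenchyme genes reached 5 TPM on day 8 in either line than in wild type. For 20 epithelial genes the numbers were 19, 20 and 20, and for 15 naive pluripotency genes 14, 15 and 15. With nearly all members at 5 TPM, such a count could hardly show a gap. Other lists went either way, with 12, 5 and 6 of 15 definitive endoderm genes and 5, 9 and 10 of 11 germline genes. Of the 31 sarcomere genes measured, 21 reached 5 TPM on day 8 in wild type, 6 in G6 and 8 in H8. Of 30 endothelial genes the numbers were 24, 8 and 7, of 29 blood genes 14, 3 and 3, of 30 yolk sac genes 21, 12 and 11, of 41 mesenchyme genes 36, 12 and 23, and of 39 Hox genes 24, 0 and 0.

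The lines had no single order over the lists. Summed TPM on day 8 was 166 in G6 and 160 in H8 for endothelial genes. It was 1541 and 918 for parietal endoderm and basement membrane genes, but 843 and 1528 for mesenchyme genes. Single genes, picked for a high wild-type level on day 8, also differed between the lines. Hand1 had 239 TPM on day 8 in wild type, 14.7 in G6 and 57.7 in H8. Acta2 had 780, 2.80 and 39.0 TPM, Cdh5 35.2, 0.591 and 0.918, and Tnnt2 72.5, 1.51 and 2.14. Afp had 24.8, 5.41 and 14.5 TPM and Igf2 905, 33.5 and 347, so H8 was nearer to wild type than G6 for both. H19, next to Igf2, had 986, 14.9 and 4.26 TPM, with H8 below G6. Streak genes were below wild type already on day 4. Of the 21, 20 reached 5 TPM in wild type, 8 in G6 and 12 in H8, and Mesp1 had 87.5, 0 and 1.98 TPM. Over all named genes the numbers at 5 TPM on day 4 were 11414, 11894 and 11693.

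**Figure D4:**
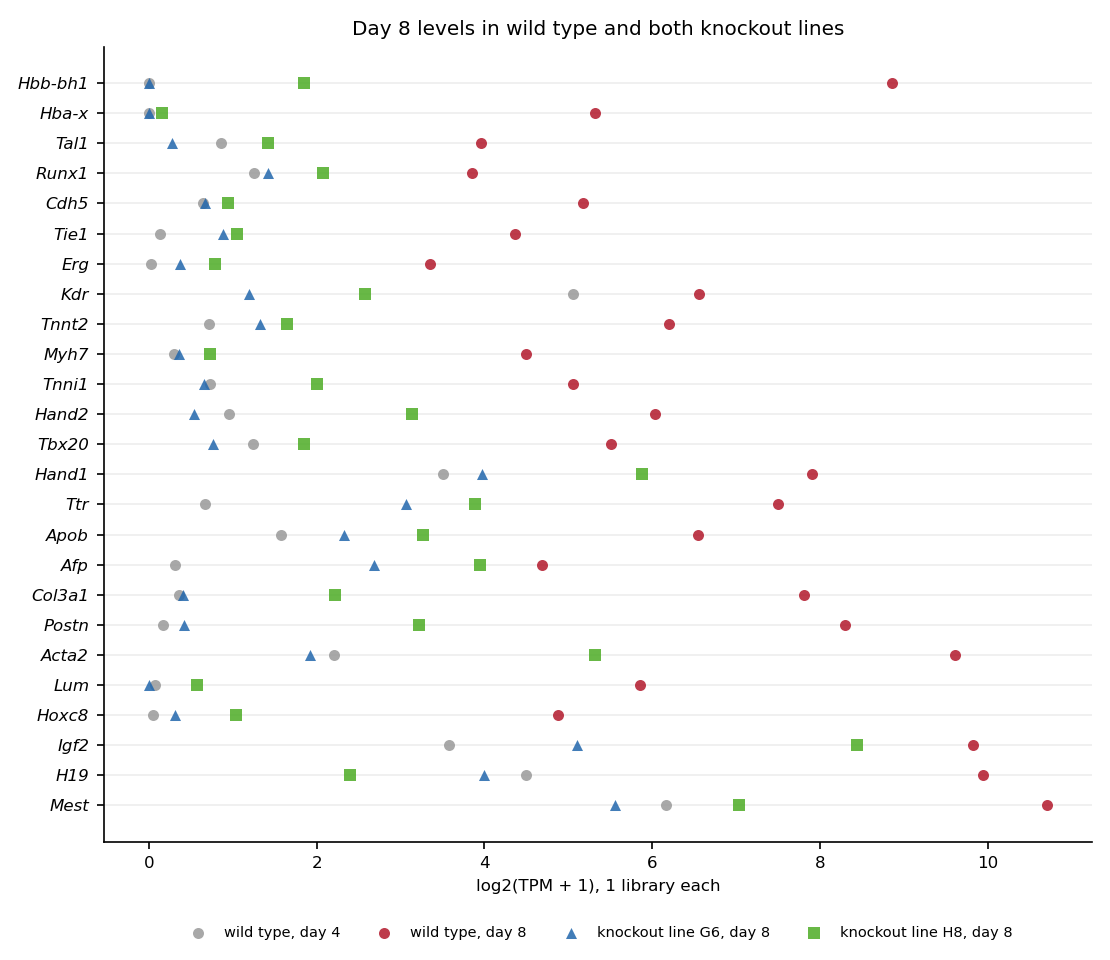
Level, log2(TPM + 1), of 25 genes of the blood, vessel, heart, yolk sac, mesenchyme, Hox and imprinted groups in the wild-type library of day 4 (grey), of day 8 (red) and the day 8 libraries of knockout lines G6 (blue triangles) and H8 (green squares), 1 library each. The genes were picked for a high wild-type level on day 8, so that point lying furthest right in all 25 follows in part from the choice; H8 lies to the right of G6 except for H19.

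The difference between the courses was tested as an interaction, the change from day 4 to day 8 in wild type minus that in the knockout lines, over 24794 genes and all 9 libraries. With edgeR's quasi-likelihood test and Benjamini-Hochberg adjustment none passed an adjusted p of 0.05 (0.0%); the lowest adjusted p was 0.111, and 4041 genes had an unadjusted p under 0.05. DESeq2 on the same design called 1577 of 20948 genes (7.53%), 898 of them with a higher change in wild type. The spread in this fit comes only from the pair of knockout lines, and wild type is assumed to vary like them. By edgeR's estimates, the change was higher in wild type by 5.30 for Tnnt2 (log2, SE 0.74, adjusted p = 0.119), by 5.06 for Actc1 (SE 0.51, adjusted p = 0.111) and by 3.66 for Tek (SE 0.41, adjusted p = 0.111). For Pou5f1 the estimate was −2.71 (SE 0.24, adjusted p = 0.111) and for Tdgf1 −3.21 (SE 0.34, adjusted p = 0.111). None of these passed the threshold, so no gene is said here to follow a different course in wild type by that test. The groups' medians of this estimate were −3.31 over 21 streak genes, 2.69 over 29 sarcomere genes and 3.47 over 27 endothelial genes. They were 3.15 over 29 yolk sac genes and 2.39 over 41 mesenchyme genes. Further groups also lay away from 0, among them 3.07 over 38 Hox genes and 2.53 over 24 blood genes. Below 0 were −2.13 over 11 Nodal genes and −1.39 over 15 naive pluripotency genes. Some groups lay near 0, with −0.0037 over 20 BMP and TGF-beta genes, 0.088 over 16 Notch genes and −0.053 over 14 haem and iron genes. The estimate contains the wild-type change by which these groups were described above, so the medians are a description and no separate support.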

How the data were processed

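PolyA+ RNA of 9 libraries was analysed: wild-type and 2 Hnrnpll-/- lines on days 0, 4 and 8. Per the submitters' processing notes, HISAT2 2.0.5, StringTie 1.3.3b and the build mm10 were used; the annotation and strand setting are not given in the sources used here. The authors deposited raw counts and TPM values per gene; entries that name no gene (259, at most 0.0398% of counts) entered no analysis. Symbols and positions came from GENCODE M21, which holds all 49326 named identifiers; 49311 of them had a TPM value. Of the 820 genes tabulated for the text, 394 overlap another gene, so their reads may be mixed.

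Differences are log2(TPM + 1), day 8 minus day 4, over genes at 5 TPM or more in either library. No test was made within wild type. The interaction was fitted with edgeR 4.0.16 (R 4.3.3) on the deposited counts, in 6 groups with 3 residual degrees of freedom. Genes were kept at a CPM of 0.0791 (10 counts in the median library) or more in at least 2 libraries. The script was tested on simulated counts with a coefficient of variation of 0.35, against 0.348 in the fit. It recovered 2 of 50 genes changed 4-fold, 35 of 50 changed 16-fold, and all 50 at 64-fold and at 256-fold. The simulation gave every gene the same variation and fitted 16804 genes, against 24794 in the real fit. It therefore cannot say which sizes of difference the real fit would call. The lack of called genes does not exclude differences between the courses. DESeq2 1.42.0 was an alternative. The labels give each knockout line on all 3 days, and the H8 minus G6 deviations correlated between days over 11523 genes (Pearson r 0.207, 0.194 and 0.469), so lines were also fitted as a block. Nothing in the labels says that the lines are separate cultures of a group, so p-values measure only the spread between them.

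Gene lists, members and tests were chosen with earlier results of these data known. Named were all members of the 9 main lists, up to 6 of each other list by size of difference, the 20 largest differences each way among protein-coding genes, and up to 6 of each course class by level; members named beyond this, markers at or near 0 and the groups said to be noticed in the values were chosen after their values were seen. Promoter sequences are from RefSeq, matched by symbol, the first entry per gene. Results for some members of the lists are not reported here.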

Additional observations from a re-analysis of the deposited data

How the results depend on the processing

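A larger limit left 649 genes higher and 205 lower at 4-fold. Subtracting the median of all genes, an alternative chosen after seeing the data, raised the number lower from 746 to 1151. Under the other 6 alternatives (pseudocount 0.1, both CPM scalings, limits of 1 and 10 TPM, protein-coding genes only) the number higher ran from 1602 to 2709 and the number lower from 559 to 1096. Of 403 named genes with a 2-fold difference, all kept their direction and 403 kept 2-fold with a pseudocount of 0.1, 382 on CPM with TMM factors and 381 after subtraction of the median. Among list medians, that of the Hox clusters moved most with a pseudocount of 0.1, from 3.02 to 5.34. The interaction called 0 genes with edgeR, with RLE factors, total count scaling and no filter, and 1577 with DESeq2; the cause of that gap was not tested. With the replicate block for the lines it called 0, at 4495 unadjusted. Leaving out 1 library at a time gave 0 to 1 genes, the 1 being Gm5148 without line G6 on day 4 (log2 −13.2, adjusted p = 0.0244, edgeR), where H8 alone, at 0.0210 TPM against 90.5 in G6, stood for that day; the lone sample is assumed to vary like the other groups. The wild-type libraries of day 4 and day 8 cannot be left out. Low counts fall on multiples of 4 in 32.0% of genes on day 4 and 33.2% on day 8, against 25% by chance. A count may therefore not always be 1 fragment, which was not tested, and folds against 0 counts are bounds.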
